A study of Homo sapiens with 18 samples.

Results

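The retinoic acid pathway was followed through 10 genes in a colorectal carcinoma line that carries an edited inhibitor of NF-κB. The genes were taken by symbol: the enzymes RDH10, ALDH1A3, DHRS3 and CYP26A1, the carrier CRABP2, the receptors RARA, RARG, RXRA and RXRB, and TGM2, a gene that retinoic acid induces in many cell types. All 10 were found among the 61552 genes in the count table, and all 10 passed the filter on low counts, which left 19038 genes for testing. Total RNA came from HCT116, a human colorectal carcinoma line of epithelial origin, with a knock-in of IκBα, the protein that holds NF-κB in the cytoplasm until it is degraded. The samples, which the submitters call IκBα-SOF, are WT (wild-type IκBα knocked in), N108 (a mutant whose exact substitution the labels do not state) and M3 (alanine in place of the histidine at residue 84 and of the glutamates at residues 85 and 86). Each genotype was either untreated or given human TNFα (TNF hereafter) at 0.1 µg/mL for 40 min, with 3 libraries in each of the 6 groups. A single line is named per genotype, so a mutation and the line that carries it cannot be told apart. No source says that the replicates were separate cultures. A p-value here therefore rests on how far libraries of the same group differ, pooled over the 6 groups, possibly for technical reasons alone.

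Retinoic acid is a small signalling molecule made from vitamin A. RDH10 oxidises retinol to retinaldehyde and ALDH1A3 oxidises retinaldehyde to retinoic acid, while DHRS3 reduces retinaldehyde back to retinol and CYP26A1 hydroxylates retinoic acid for removal. CRABP2 carries retinoic acid to its nuclear receptors, the RARs, which bind DNA as dimers with an RXR and switch on targets such as CYP26A1, DHRS3 and TGM2. In the intestinal epithelium the pathway is known for its part in cell differentiation.

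Library totals ran from 49021907 to 76947190 counts. NFKBIA, the gene of IκBα and itself a target of NF-κB, rose with TNF in WT, N108 and M3 by 3.05, 3.19 and 3.63 on the log2 scale. Counts per gene do not show point mutations, so this bears on the TNF labels and not on the genotypes. Untreated N108 had less NFKBIA RNA than WT (30.3 ± 1.82 against 91.6 ± 4.57 CPM, SD, n = 3, CPM being the count relative to the scaled library total), and untreated M3 had 77.9 ± 1.17 CPM. All 8 epithelial markers examined (EPCAM, CDH1, KRT8, KRT18, KRT19, CLDN3, CLDN4 and CDX2) were at 1 CPM or more in every group. Their summed level per library moved with genotype, from 6570 to 6900 CPM in untreated WT to 5060 to 5330 CPM in untreated N108 and 4320 to 4650 CPM in untreated M3. The other cell types' markers were low, with 2 of 5 fibroblast genes (COL1A1 and COL3A1) at 1 CPM or more and a fibroblast sum of 19.5 to 38.7 CPM over all groups. The leukocyte marker LYZ was at 2.52 to 3.9 CPM in WT and at most 0.333 CPM in the mutants, and the endothelial gene VWF was between 0.525 and 1.72 CPM. The part of these shifts in the results that follow was not tested.

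Both mutant lines had lower RNA levels than WT of TGM2, of RDH10 and ALDH1A3, which make retinoic acid, and of the carrier CRABP2, and a higher level of RARA. The largest difference in the set was that of TGM2, 4.42-fold lower in untreated N108 and 7.07-fold lower in untreated M3. RXRB did not pass the test in any comparison of the lines, though it did in some of them under an alternative processing described below. Without TNF, 1 of the 10 genes rose and 7 fell in N108 against WT. Of all genes tested, 42.4% were called in that comparison (20.9% higher and 21.6% lower). In M3 against WT 1 gene again rose and 7 fell, where 52.9% of all genes were called (26.1% higher and 26.8% lower). The median log2 fold change of the 10 genes was -0.42 in N108 and -0.36 in M3, beside 0.01 and 0.00 over all genes tested. The members were chosen with earlier results of these data known, so these counts and medians are a description. In bulk RNA a lower level in every cell and fewer cells that express a gene cannot be told apart.

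**Figure D1:**
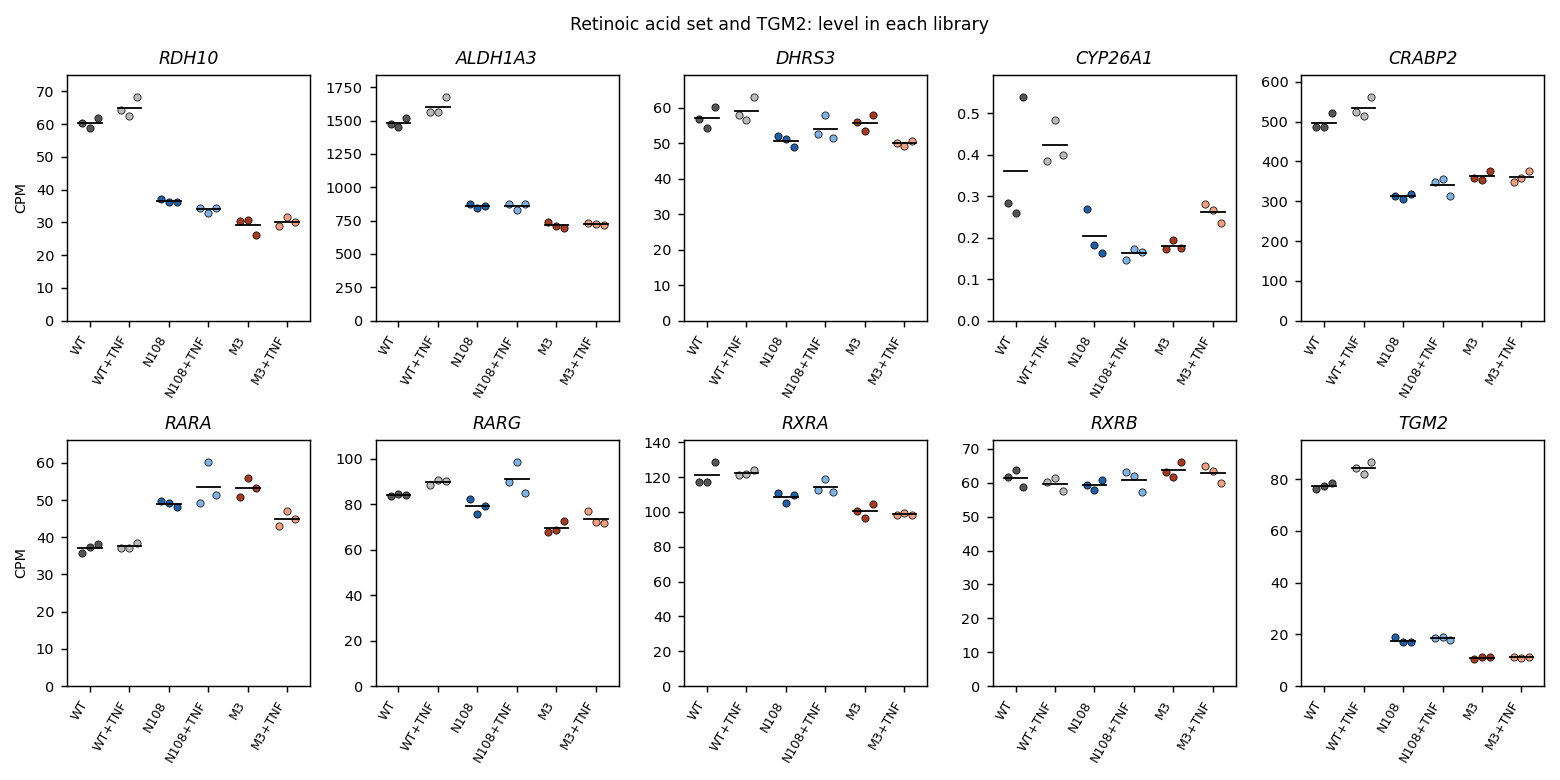
Level of each of the 10 genes in every library, in CPM on linear axes that start at 0, with 3 points per group and a line at the group mean. TGM2, ALDH1A3, RDH10 and CRABP2 stand lower in all 12 mutant libraries than in the 6 WT libraries, while RXRB overlaps between the lines.

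Among the enzymes, ALDH1A3 was the most abundant. Per kilobase of exon, a scale on which genes can be compared, untreated WT cells had 257 ± 6.15 CPM of ALDH1A3, 11.3 ± 0.281 of RDH10, 18.8 ± 0.961 of DHRS3 and 0.122 ± 0.0522 of CYP26A1 (SD, n = 3). ALDH1A3 (chromosome 15, 100877714 to 100916626, plus strand) was at 1474, 1451 and 1521 CPM in the untreated WT libraries, at 877, 844 and 862 CPM in N108 and at 743, 713 and 693 CPM in M3. The 3 groups did not overlap, with WT highest and M3 lowest. The log2 fold change against WT was -0.78 in N108 (SE 0.042, adjusted p = 7.9e-15, edgeR's quasi-likelihood test with Benjamini-Hochberg adjustment) and -1.05 in M3 (SE 0.042, adjusted p = 7e-18).

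RDH10 (chromosome 8, 73294612 to 73325281, plus strand) went the same way as ALDH1A3. Its untreated levels were 60.3, 58.8 and 61.8 CPM in WT, 37.3, 36.3 and 36.2 CPM in N108 and 30.4, 30.8 and 26.2 CPM in M3. Again no library of a mutant reached WT, and all M3 libraries were below those of N108. For RDH10 the log2 fold change was -0.72 in N108 (SE 0.055, adjusted p = 2e-11) and -1.05 in M3 (SE 0.056, adjusted p = 5e-15). RNA of RDH10 and of ALDH1A3 was therefore at about the same fraction of WT, 1.65-fold and 1.72-fold lower in N108, and 2.07-fold lower in M3 for each. In M3 this does not extend to every enzyme of these steps. ALDH1A2, which also makes retinoic acid, was 1.75-fold lower in N108 but 5.18-fold lower in M3 (log2 fold changes of -0.81 and -2.37).

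DHRS3, the reductase that works against RDH10 (chromosome 1, 12567910 to 12617731, minus strand), changed little. It was at 56.8, 54.3 and 60.1 CPM in untreated WT, at 51.96, 51.17 and 48.99 CPM in N108 and at 55.9, 53.4 and 57.8 CPM in M3. N108 lay just below WT without overlap, whereas M3 overlapped WT. The call in N108 (log2 fold change -0.17, SE 0.054, adjusted p = 0.012) was lost without N108 untreated replicate 3 (-0.14, adjusted p = 0.062) and without WT untreated replicate 3 (-0.13, adjusted p = 0.083). In M3 the log2 fold change was -0.03 with a 95% interval from -0.14 to 0.08.

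CYP26A1 (chromosome 10, 93073475 to 93077890, plus strand) was close to the limit of detection, with 9 to 27 counts per library. Untreated WT had 22, 17 and 27 counts, N108 16, 14 and 10, and M3 10, 12 and 10. In CPM these are 0.283, 0.261 and 0.540 for WT, 0.269, 0.182 and 0.164 for N108 and 0.173, 0.195 and 0.175 for M3, so N108 overlapped WT and M3 did not. Both calls were thin. The log2 fold change of -0.77 in N108 (SE 0.31, adjusted p = 0.045) lost its call with DESeq2 (adjusted p = 0.085), without a low-count filter (adjusted p = 0.11), with only the groups compared in the fit (adjusted p = 0.071) and with a replicate block (adjusted p = 0.055). It was also lost without N108 untreated replicate 2 (-0.69, adjusted p = 0.14) or 3 (-0.65, adjusted p = 0.15), and was -0.42 without WT untreated replicate 3 (adjusted p = 0.33). For M3 the log2 fold change was -0.93 (SE 0.32, adjusted p = 0.016), and -0.58 without WT untreated replicate 3 (adjusted p = 0.16). Leaving out M3 untreated replicate 1 gave -0.90 with an adjusted p of 0.05, just above the threshold.

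CYP26A1 is the member whose promoter region holds a full repeat of the receptor motif, and its site is printed for that reason. RAR and RXR dimers bind repeats of a hexamer, searched here as AGGTCA with the variants AGTTCA, then GGGTCA and also GGTTCA, on both strands, alone or as direct repeats with a spacing of 1, 2 or 5 bases (a repeat contains 2 single hexamers). The windows were the 250 bases before each start in the RefSeq promoter table (GRCh38.p14), which has 15 windows for 8 of the 10 genes and none for RDH10 and TGM2. A hexamer occurred in 6 of the 15 windows and in 33.8% of all 35114 windows. Repeats with a spacing of 1, 2 and 5 bases occurred in 0.0968%, 0.0313% and 0.074% of all windows, and the only repeat among the 15 was that of CYP26A1. It has a spacing of 5 and lies at chr10:93073803-93073819 on the minus strand, 90 to 74 bases before the second of the gene's listed starts and within the gene's span in GENCODE 29. Its hexamers are in capitals. A match of letters is a description and not evidence of binding.
CYP26A1: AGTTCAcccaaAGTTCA

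CRABP2, the carrier (chromosome 1, 156699606 to 156705816, minus strand), had the highest level per kilobase of exon in the set, 452 ± 18.3 CPM per kilobase in untreated WT (SD, n = 3). Its untreated levels were 487, 485 and 521 CPM in WT, 313, 306 and 319 CPM in N108 and 360, 354 and 375 CPM in M3. Both mutants were below WT without overlap, but here N108 was the lower of them. The log2 fold change was -0.67 in N108 (SE 0.049, adjusted p = 9.5e-12) and -0.46 in M3 (SE 0.049, adjusted p = 9e-09). Its promoter stretch is printed as an example of a window with a hexamer, which 33.8% of all windows held. RXRA, also called lower in both lines untreated, has a window with a hexamer too. The CRABP2 stretch covers chr1:156705817-156706034 on the minus strand, the part of the window outside exons of protein-coding genes. The capitals mark the single hexamer, 249 to 244 bases before the start.
CRABP2: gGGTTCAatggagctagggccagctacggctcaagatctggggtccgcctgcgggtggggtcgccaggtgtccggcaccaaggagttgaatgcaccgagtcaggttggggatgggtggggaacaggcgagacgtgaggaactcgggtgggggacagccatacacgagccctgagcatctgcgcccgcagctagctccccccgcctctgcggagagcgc

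RARA encodes a receptor for retinoic acid (chromosome 17, 40309192 to 40357643, plus strand) and was the only member that rose in the mutants. It was at 35.9, 37.4 and 38.1 CPM in untreated WT, at 49.9, 49.2 and 48.1 CPM in N108 and at 50.9, 56.0 and 53.3 CPM in M3. All mutant libraries were above all WT libraries. The log2 fold change was 0.40 in N108 (SE 0.059, adjusted p = 2.8e-06) and 0.52 in M3 (SE 0.059, adjusted p = 2e-08). The window before the first listed start of RARA, chr17:40308930-40309179 on the plus strand, is printed because its gene moved against the rest of the set. The capitals mark its 2 hexamers, the second of which is on the minus strand and is therefore seen as its reverse complement.
RARA: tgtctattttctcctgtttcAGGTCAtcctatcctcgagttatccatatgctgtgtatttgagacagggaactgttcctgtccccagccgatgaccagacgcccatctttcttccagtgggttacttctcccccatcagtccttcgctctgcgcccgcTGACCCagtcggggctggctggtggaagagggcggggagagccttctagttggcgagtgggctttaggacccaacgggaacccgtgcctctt

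RARG, the other receptor of this class that was tested (chromosome 12, 53210567 to 53232980, minus strand), was lower in M3. Its untreated levels were 83.5, 84.5 and 84.2 CPM in WT, 82.3, 75.9 and 79.1 CPM in N108 and 67.7, 68.8 and 72.4 CPM in M3. M3 was below both other lines, and all N108 libraries were just below WT. The log2 fold change was -0.27 in M3 (SE 0.051, adjusted p = 5.2e-05) and -0.09 in N108, which did not pass (adjusted p = 0.17, 95% interval -0.19 to 0.02). RARA and RARG thus differed in sign in M3 against WT. Per kilobase of exon RARA stood at 7.85 ± 0.244 and RARG at 16.4 ± 0.101 CPM in untreated WT, and at 11.3 ± 0.539 and 13.6 ± 0.477 CPM in untreated M3 (SD, n = 3). RARB, the remaining RAR gene, had 65 counts in all 18 libraries together and was not tested.

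RXRA (chromosome 9, 134317098 to 134440585, plus strand) fell slightly. It was at 117, 117 and 129 CPM in untreated WT, at 111, 105 and 110 CPM in N108 and at 101, 96.7 and 105 CPM in M3. Each mutant was below WT without overlap, M3 more so. The log2 fold change was -0.26 in M3 (SE 0.045, adjusted p = 1.8e-05) and -0.15 in N108 (SE 0.045, adjusted p = 0.0071). The call in N108 was lost with each library's GC trend removed (-0.07, adjusted p = 0.14) and without WT untreated replicate 3 (-0.11, adjusted p = 0.078). Without that library 5 of the 10 genes were called in N108 against WT, in place of 8, and 7125 of all genes, in place of 8079.

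RXRB (chromosome 6, 33193588 to 33200688, minus strand) held the narrowest range. Over all 18 libraries it lay between 57.4 and 66.1 CPM, and the means of the 6 groups spanned 0.101 on the log2 scale. Untreated, the log2 fold change was -0.05 in N108 (95% interval -0.15 to 0.05) and 0.05 in M3 (95% interval -0.05 to 0.15). With the GC trend removed RXRB was called higher in M3 than in WT, by 0.13 untreated (adjusted p = 0.012) and 0.12 with TNF (adjusted p = 0.024). It was then also called in N108 against M3, at -0.11 untreated (adjusted p = 0.041) and -0.17 with TNF (adjusted p = 0.0022). RXRG had 4 counts over all libraries and was not tested.

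TGM2 encodes a transglutaminase that cross-links proteins (chromosome 20, 38127387 to 38166578, minus strand), and it showed the widest separation of the set. Its levels were 76.1, 77.3 and 78.5 CPM in untreated WT, 18.8, 16.8 and 16.9 CPM in N108 and 10.4, 11.2 and 11.2 CPM in M3. With TNF they were 84.4, 81.8 and 86.5 CPM in WT, 18.5, 19.0 and 17.8 CPM in N108 and 11.3, 10.8 and 11.1 CPM in M3. The lines never overlapped, in the order WT, N108, M3 with or without TNF, and the means of the 6 groups spanned 2.94 on the log2 scale. Untreated, its log2 fold change was -2.14 in N108 (SE 0.052, adjusted p = 1.8e-22) and -2.82 in M3 (SE 0.054, adjusted p = 5e-25). Leaving out any single library of these groups moved the values only within -2.20 to -2.12 and -2.84 to -2.78.

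**Figure D2:**
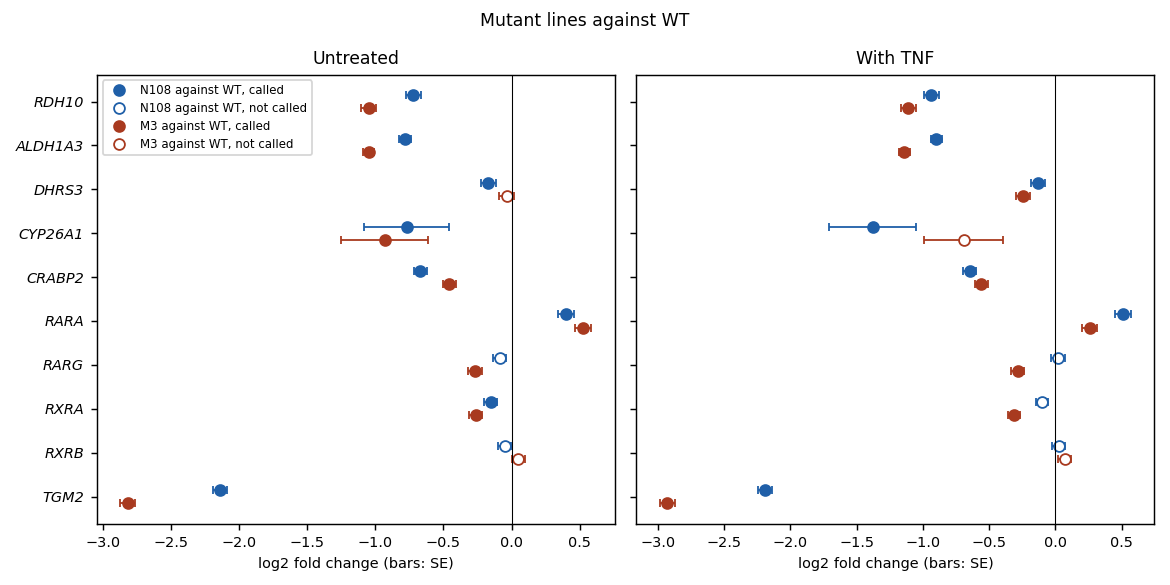
Log2 fold change of each gene in N108 and in M3 against WT, untreated on the left and with TNF on the right, with bars of 1 SE and open circles for genes that did not pass the test. TGM2 lies at -2.14 and -2.82 without TNF, RDH10, ALDH1A3 and CRABP2 lie between -1.05 and -0.46, and RARA is the only filled point above 0.

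Among all 10395 genes with at least 10 CPM in some group, whatever their level, the log2 fold change of TGM2 was the 35th lowest in untreated N108 against WT and the 38th lowest in untreated M3 against WT. ALDH1A3 was 208th and 213th, RDH10 245th and 214th, and CRABP2 274th and 1040th from the lowest. In N108 1.37% of these genes were at least 2-fold lower than in WT, and in M3 2.27%. RARA stood at the 93.1st and 93.6th percentile of the same rankings. These ranks are a description of where the members stand and were not tested.

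**Figure D3:**
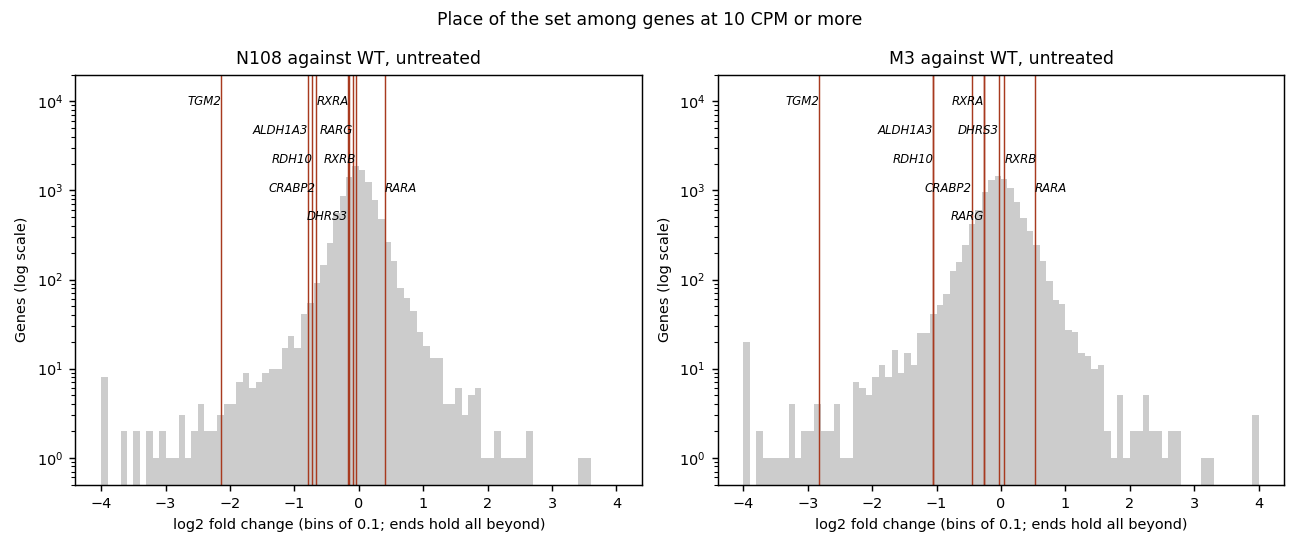
Distribution of log2 fold changes of untreated N108 and M3 against WT over the 10395 genes with at least 10 CPM in some group (grey bars, genes per bin on a log scale), with a vertical line for each member but CYP26A1. TGM2 stands in the left tail in both panels, and RARA lies to the right of the centre.

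The same comparisons with TNF use other libraries of the same lines. In N108 against WT with TNF 1 gene rose and 6 fell, where 46.7% of all genes were called (23% higher and 23.6% lower). In M3 against WT with TNF 1 rose and 7 fell, beside 54.7% of all genes (26.9% higher and 27.8% lower). The members' medians were -0.39 and -0.44, and those of all genes 0.02 in both, again a description. TGM2 was at -2.19 and -2.93, ALDH1A3 at -0.90 and -1.14, RDH10 at -0.94 and -1.11 and CRABP2 at -0.65 and -0.56 in N108 and M3 (adjusted p at most 1.7e-10 for M3 and 1.8e-11 for N108). RARA was higher by 0.51 in N108 (adjusted p = 6.5e-08) and by 0.26 in M3 (adjusted p = 0.00062). The weaker calls moved: CYP26A1 passed in N108 (-1.38, SE 0.33, adjusted p = 0.0011) and not in M3 (-0.69, SE 0.3, adjusted p = 0.054). Its CPM was 0.386, 0.485 and 0.400 in WT with TNF, 0.147, 0.174 and 0.167 in N108 and 0.282, 0.267 and 0.235 in M3, all mutant values being below those of WT. DHRS3 passed in M3 (-0.24, SE 0.054, adjusted p = 0.00041), and at -0.13 in N108 (adjusted p = 0.047) its groups overlapped.

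That call of DHRS3 in N108 with TNF was lost without N108 TNF replicate 1 (-0.11, adjusted p = 0.14) or 3 (-0.10, adjusted p = 0.17) and without WT TNF replicate 1 (-0.15, adjusted p = 0.055) or 3 (-0.08, adjusted p = 0.27). It was also lost with the stricter filter (adjusted p = 0.08), no filter (0.071), only the compared groups in the fit (0.076) and the replicate block (0.059). RXRA was not called in N108 with TNF (-0.10, adjusted p = 0.078), but was with DESeq2 (-0.11, adjusted p = 0.042), with the GC trend removed (-0.19, adjusted p = 7.2e-05) and without N108 TNF replicate 2 (-0.13, adjusted p = 0.032).

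The mutants also differed from each other. Untreated, 4 of the 10 genes were higher and 1 was lower in N108 than in M3, where 31.5% of all genes were called (16.4% higher and 15% lower), and with TNF 6 were higher and 0 lower, where 37.3% were called (20% higher and 17.3% lower). TGM2 was 1.6-fold higher in N108 than in M3 without TNF (log2 0.68, SE 0.056, adjusted p = 2.3e-10) and 1.66-fold higher with it (log2 0.73, SE 0.056, adjusted p = 5.2e-11). ALDH1A3 was higher by 0.27 and 0.24 (adjusted p = 1.3e-05 and 3.2e-05), RDH10 by 0.33 and 0.17 (4.9e-05 and 0.02) and RARG by 0.18 and 0.30 (0.0061 and 2.5e-05). For these 4 genes M3 was thus the lower of the mutant lines in both conditions. CRABP2 went the other way, lower in N108 untreated (log2 -0.21, SE 0.049, adjusted p = 0.0013). With TNF the CRABP2 difference was -0.09 (adjusted p = 0.17, 95% interval -0.19 to 0.01), and -0.18 with the GC trend removed (adjusted p = 0.00041).

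With TNF, RARA and RXRA were called higher in N108 than in M3, by 0.25 (adjusted p = 0.0012) and 0.21 (adjusted p = 0.00055), and both calls were lost with the GC trend removed (0.09 and 0.06, adjusted p = 0.17 and 0.18). Untreated, they differed by -0.12 (adjusted p = 0.12) and 0.11 (adjusted p = 0.067). The RDH10 call with TNF was lost without M3 TNF replicate 1 (0.13, adjusted p = 0.12) or 3 (0.16, adjusted p = 0.062) and without N108 TNF replicate 1 (0.15, adjusted p = 0.07). Leaving out M3 untreated replicate 3 brought RXRA past the threshold untreated (0.14, adjusted p = 0.037). DHRS3 passed it untreated without M3 untreated replicate 2 (-0.17, adjusted p = 0.035), and with TNF without N108 TNF replicate 3 (0.14, adjusted p = 0.049).

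Exposure to TNF for 40 min moved the set little. In WT edgeR's quasi-likelihood test called 0 of the 10 genes, where 5.18% of all genes were called, and DESeq2 called 0 as well. At an unadjusted p below 0.05, a looser threshold than that behind the 5.18%, there were 2 members. They were TGM2 (log2 0.12, SE 0.048, adjusted p = 0.15) and ALDH1A3 (0.11, SE 0.041, adjusted p = 0.13). Both were higher in all 3 TNF libraries of WT than in all 3 untreated ones, as were RARG and RDH10. How many of all genes were so separated was not counted. The 10 changes in WT ran from -0.04 (RXRB) to 0.28 (CYP26A1), with a median of 0.10 beside 0.01 over all genes tested, which is a description. With the GC trend removed 4 genes were called in WT, TGM2 (0.18, adjusted p = 0.006), RARG (0.17, adjusted p = 0.0062), CRABP2 (0.15, adjusted p = 0.013) and ALDH1A3 (0.14, adjusted p = 0.036).

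In N108 RARG was the only call, where 1.2% of all genes were called. It rose from 82.3, 75.9 and 79.1 CPM to 89.6, 98.4 and 84.9 CPM (log2 0.20, SE 0.05, adjusted p = 0.041). The groups did not overlap, and replicate 2 with TNF was the highest library. Without that library the change was 0.14 (adjusted p = 0.4), and without N108 TNF replicate 1 (0.21, adjusted p = 0.072) or N108 untreated replicate 2 (0.17, adjusted p = 0.36) or 3 (0.20, adjusted p = 0.12) the call was lost too. It was also lost with the GC trend removed (0.10, adjusted p = 0.35), the replicate block (adjusted p = 0.069) and only the compared groups in the fit (adjusted p = 0.27). CRABP2, at 0.12 (adjusted p = 0.26), was called without N108 TNF replicate 3 (0.17, adjusted p = 0.03).

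In M3 the only call was a fall of RARA, where 1.38% of all genes were called. RARA went from 50.9, 56.0 and 53.3 CPM to 43.1, 47.1 and 44.9 CPM with TNF, without overlap (log2 -0.25, SE 0.059, adjusted p = 0.025). Leaving out M3 TNF replicate 1 (-0.22, adjusted p = 0.22) or 3 (-0.25, adjusted p = 0.09) or M3 untreated replicate 2 (-0.21, adjusted p = 0.17) or 3 (-0.25, adjusted p = 0.058) ended the call. TGM2 did not pass in either mutant line, at 0.07 in N108 (95% interval -0.04 to 0.18) and 0.02 in M3 (95% interval -0.10 to 0.14).

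**Figure D4:**
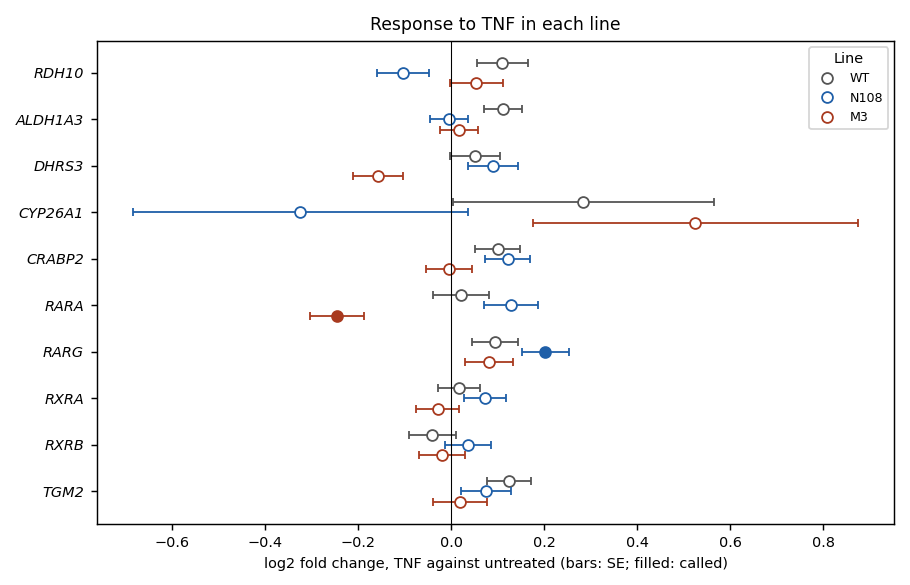
Log2 fold change of each gene with TNF against untreated in WT, N108 and M3, with bars of 1 SE and filled circles for the calls. The filled points are RARG in N108 at 0.20 and RARA in M3 at -0.25, and CYP26A1 has the widest bars.

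Whether TNF acted differently in the mutants was tested as an interaction. With N108 0 of the 10 genes were called by edgeR's quasi-likelihood test and 0 by DESeq2, where edgeR called 2.62% of all genes. A single member was below an unadjusted p of 0.05, a looser threshold than that behind the 2.62%. It was RDH10 (-0.21, SE 0.078, adjusted p = 0.11), at 65.0 ± 2.99 against 60.3 ± 1.5 CPM in WT and 34.0 ± 0.913 against 36.6 ± 0.62 CPM in N108, with TNF against without (SD, n = 3). With M3 both tools again called 0, where edgeR called 0.315% of all genes. The share of all genes below an unadjusted p of 0.05 is not given here. Below it were 2 members, RARA (-0.27, SE 0.084, adjusted p = 0.21) and DHRS3 (-0.21, SE 0.076, adjusted p = 0.34). Those 2 were called with the GC trend removed, at -0.30 (adjusted p = 0.029) and -0.25 (adjusted p = 0.048). For TGM2 the interaction was -0.05 with N108 (95% interval -0.20 to 0.10) and -0.11 with M3 (95% interval -0.26 to 0.05).

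Ordered by group mean, the members fell into different patterns. TGM2, ALDH1A3 and RDH10 had both WT groups on top, then both N108 groups, then both M3 groups. Neighbours that overlapped in range were N108 with and without TNF for TGM2 and ALDH1A3, and M3 with and without TNF for all 3 genes. CRABP2 had the M3 groups next below WT, and from M3 untreated downward every neighbour overlapped. RARA had both WT groups at the bottom, overlapping each other. For DHRS3, CYP26A1 and RXRB every pair of neighbours overlapped.

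TGM2 was the only member whose group means spanned more than 2 on the log2 scale, the condition set for a search of genes with the same pattern. Of 13542 genes compared over the 6 groups, the 3 closest were TENT5B, CCDC85A and SEMA3C, with root mean square differences of 0.0203, 0.0615 and 0.0727 on the log2 scale from TGM2 once each gene was centred on its own mean. TENT5B, which encodes a non-canonical poly(A) polymerase family protein, was at 18.5 ± 0.691 CPM in untreated WT, 4.31 ± 0.248 CPM in N108 and 2.63 ± 0.377 CPM in M3 (SD, n = 3). SEMA3C, a secreted semaphorin, was at 41.9 ± 1.62, 10.3 ± 0.596 and 6.58 ± 1.14 CPM in the same order. CCDC85A was low, at 1.98 ± 0.256, 0.446 ± 0.0732 and 0.245 ± 0.0765 CPM. The genes were picked for this likeness, so their levels are a description.

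Other genes of the pathway were taken from lists that do not overlap the 10 members. Among carriers and uptake proteins 7 of 13 were tested, and 5 rose and 2 fell in untreated N108 against WT, while 3 rose and 2 fell in M3, beside 42.4% and 52.9% of all genes tested that were called in these comparisons. STRA6, the membrane receptor that takes up retinol, was at 3.54, 3.62 and 3.54 CPM in untreated WT, 0.772, 0.599 and 0.932 CPM in N108 and 0.190, 0.309 and 0.298 CPM in M3. It was the highest in WT in every library and its log2 fold change was -2.23 in N108 (SE 0.19, adjusted p = 2.1e-10) and -3.73 in M3 (SE 0.23, adjusted p = 2.4e-13). LRP2, an endocytic receptor that also takes up the retinol carrier of plasma, had 672, 539 and 471 counts in untreated WT, 13, 18 and 16 in N108 and 3, 0 and 0 in M3. It was 36.5-fold lower in N108 than in WT (SE 0.18 on the log2 scale, adjusted p = 5.6e-19), and no fold is given for M3, where libraries were at 0. FABP5, a fatty acid binding protein that can also carry retinoic acid, rose by 0.31 in N108 and 0.45 in M3 (adjusted p = 0.00077 and 4e-06).

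Of the other retinoid enzymes 15 of 25 were tested. In untreated N108 3 rose and 3 fell, where 20.9% of all genes were called higher and 21.6% lower. In M3 2 rose and 7 fell, where 26.1% were called higher and 26.8% lower. ALDH1A2, another enzyme that makes retinoic acid, stood highest in WT with 2.91 ± 0.301 CPM, then came N108 with 1.65 ± 0.0716 CPM and M3 with 0.558 ± 0.101 CPM (SD, n = 3), with log2 fold changes of -0.81 (adjusted p = 2.2e-05) and -2.37 (adjusted p = 2e-12). CYP26B1, which removes retinoic acid, fell from 44.9 ± 1.64 CPM to 23.2 ± 1.72 and 16.9 ± 0.756 CPM (log2 -0.96 and -1.41, adjusted p = 5.7e-14 and 1.1e-17). BCO2, which cleaves carotenoids, fell (log2 -1.01 and -1.52, adjusted p = 2.4e-09 and 1.1e-12). LRAT, which stores retinol as esters, rose by 0.44 and 0.57 (adjusted p = 0.00015 and 3.1e-06). Genes for making and for removing retinoic acid were thus both among those that fell.

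**Figure D5:**
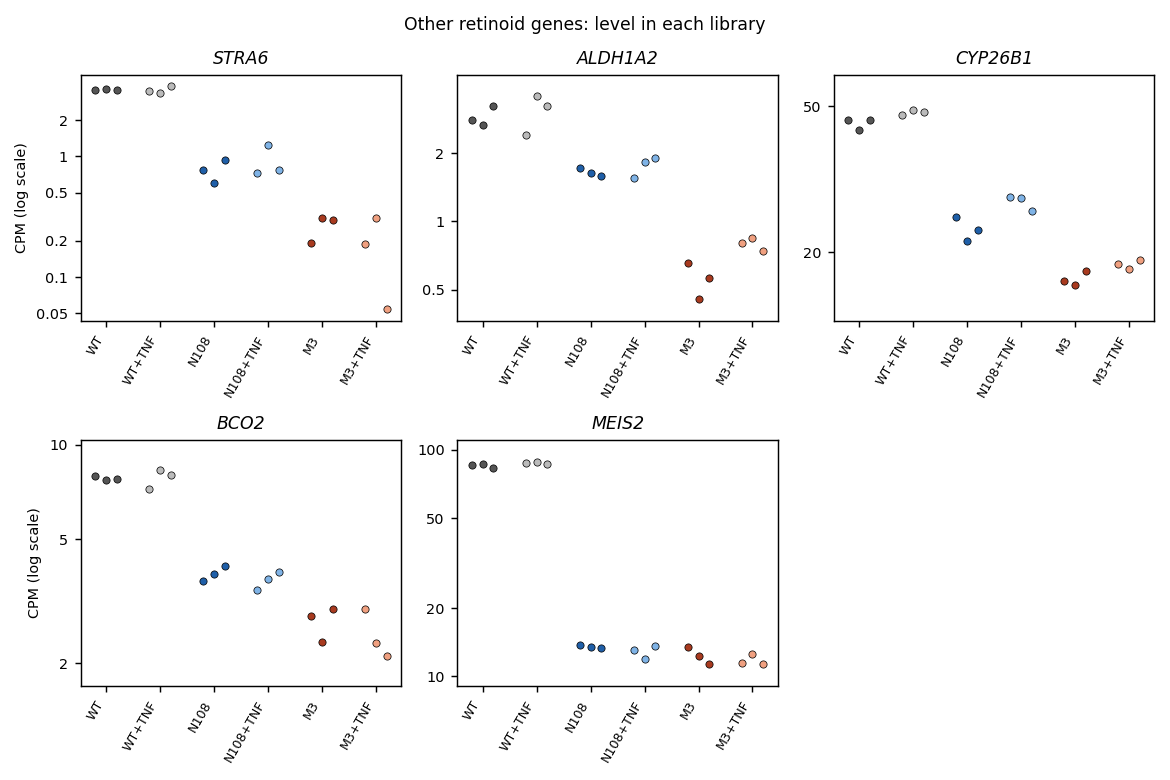
Level in every library of 5 genes of the pathway lists, in CPM on log axes, 3 points per group. STRA6, ALDH1A2, CYP26B1, BCO2 and MEIS2 are lower in all mutant libraries than in all WT libraries.

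Nuclear receptors and coregulators outside the set were tested for 13 of 15 genes. In untreated N108 6 rose and 3 fell, and in M3 6 rose and 4 fell, beside 42.4% and 52.9% of all genes called. THRB, a thyroid hormone receptor, rose from 1.39 ± 0.167 CPM to 4.88 ± 0.30 and 6.34 ± 0.323 CPM (SD, n = 3; log2 1.81 and 2.19, adjusted p = 1.2e-12 and 7.9e-15). VDR, the vitamin D receptor and a partner of RXR, rose by 0.79 and 0.64 (adjusted p = 7.1e-12 and 2.5e-10). PPARD, a fatty acid receptor that also pairs with RXR, fell (log2 -0.46 and -0.75, adjusted p = 6.3e-08 and 2.8e-12). PPARG rose by 0.71 in N108 (adjusted p = 2.9e-11) and was at -0.04 in M3 (adjusted p = 0.54). The receptors that pair with RXR therefore did not move in a common direction.

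Of 26 genes listed as retinoic acid targets 18 were tested, 7 of which rose and 8 fell in untreated N108, and 4 rose and 10 fell in M3. Of all genes, 20.9% rose and 21.6% fell in N108, and 26.1% rose and 26.8% fell in M3. MEIS2, a homeobox gene, was at 85.6, 86.4 and 83.3 CPM in untreated WT, 13.7, 13.4 and 13.4 CPM in N108 and 13.5, 12.3 and 11.4 CPM in M3. Its mutant groups overlapped each other far below WT, with log2 fold changes of -2.66 in N108 (SE 0.058, adjusted p = 1.8e-23) and -2.78 in M3 (SE 0.059, adjusted p = 3.4e-24). HOXB4 fell (log2 -1.21 and -1.97, adjusted p = 5.1e-15 and 1.8e-19) and GPRC5A, first known as a gene induced by retinoic acid, fell too (log2 -0.66 and -1.06, adjusted p = 5e-12 and 1e-16). The nuclear receptor genes NR2F1 (0.81 and 1.37, adjusted p = 3.4e-13 and 2e-18) and NR2F2 (0.48 and 0.41, adjusted p = 2e-07 and 1.9e-06) rose. Listed targets thus moved both ways. Over the 18 tested the median log2 fold change was -0.10 in N108 and -0.48 in M3, beside 0.01 and 0.00 over all genes. This list too was chosen with earlier results of these data known.

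TNF called 4 of the 18 listed targets higher in N108 and WT and 5 in M3, with 1 lower in WT, TGM1, where 5.18% (WT), 1.2% (N108) and 1.38% (M3) of all genes were called. BTG2, an antiproliferative early gene, rose by 1.35, 1.15 and 1.36 in WT, N108 and M3 (adjusted p = 8.5e-17, 3.5e-15 and 6.1e-17), and EGR1, an immediate early transcription factor, by 0.82, 0.62 and 0.98 (adjusted p = 4.4e-11, 5.7e-09 and 1.8e-13). Both are also known as early genes of other stimuli. The calls of BTG2 and EGR1 held under every alternative run, whereas those of TGM1 in WT, GPRC5A and BHLHE40 in N108 and GPRC5A and SOX9 in M3 were each lost when some single libraries were left out. In the transglutaminase family TGM1 was the only one of 9 relatives of TGM2 to be tested, at 3.08 ± 0.102 CPM in untreated WT, 1.99 ± 0.331 in N108 and 2.08 ± 0.357 in M3 (SD, n = 3; log2 -0.64 and -0.57, adjusted p = 0.00028 and 0.0007). The other 8 had at most 30 counts each over all libraries.

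Some members share exon sequence with genes on the other strand, and without a known strand setting the reads of such pairs cannot be told apart. The antisense gene AC015712.2 shares 1585 exon bases with ALDH1A3 (27.5% of its exon length) and had 2890 counts over all libraries, against 1108662 for ALDH1A3. RPRD1B shares 394 bases with TGM2 (4.9%) and had 51217 counts, against 38802 for TGM2. RARA shares 556 bases with RARA-AS1 (11.8%, 784 counts) and RXRB 244 bases with SLC39A7 (6.22%, 250194 counts). The part of these overlaps in the results was not tested.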

How the data were processed

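Total RNA of 18 libraries was sequenced as paired reads, in 6 groups of 3. The deposited counts per gene are raw whole numbers. The submitters' processing notes name Trim Galore 0.6.6, STAR 2.7.8, featureCounts, Subread 2.0.1, DESeq2 1.38.3 and hg38, with no roles, and for the annotation release and strand setting nothing is stated there. A second deposited table holds the authors' normalized values on a log2-like scale and was not used for any test.

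Genes were fitted together with edgeR 4.0.16 (R 4.3.3): TMM scaling, filterByExpr with a minimum count of 10, 6 group means, 12 residual degrees of freedom, and the robust quasi-likelihood test, two-sided, with Benjamini-Hochberg adjustment over the 19038 genes tested and a threshold of 0.05. These genes hold 99.97% of counts. SE is the log2 fold change divided by the root of F, and intervals cover 95%. SDs are over 3 libraries. Error bars in the figures show the SE, which comes from the joint fit of the 6 groups and is not a spread over 3 libraries. Library totals of 49021907 to 76947190 set the counting precision, which is coarse only for genes such as CYP26A1. Exon lengths, overlaps and coordinates came from GENCODE 29 (GRCh38). The fitting code was tested on simulated data.

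The genes named are the 10 members, every listed pathway gene called in either untreated mutant comparison with at least 1 CPM (those described are chosen among them), the 3 genes most like a member whose group means span more than 2 on the log2 scale, and NFKBIA. Some listed genes enter the counts of their lists and are not reported here by name. Members and lists were chosen with earlier results of these data known. Alternatives were DESeq2 1.42.0, its size factors in edgeR, no low-count filter, at least 1 CPM in 3 libraries, only the compared groups, a replicate block, removal of each library's GC trend, both together, and leaving out each library.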

Additional observations from a re-analysis of the deposited data

Results flagged for a closer look

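NFKBIA responded to TNF more strongly in M3 than in WT, by 0.58 on the log2 scale (interaction, SE 0.071, adjusted p = 3.5e-05, edgeR's quasi-likelihood test). LRP1, an endocytic receptor from the list of carriers and uptake proteins, differed between N108 and WT in its TNF response by 0.45 on the log2 scale (interaction, SE 0.12, adjusted p = 0.049, edgeR), with a TNF change of -0.31 in WT (adjusted p = 0.037) and of 0.14 in N108 (adjusted p = 0.43). The LRP1 interaction lost its call in 9 of the 12 fits that left out a library of these groups, among them that without WT TNF replicate 3 (0.31, adjusted p = 0.11), and also with the GC trend removed (0.28, adjusted p = 0.23) and with only the compared groups in the fit (0.45, adjusted p = 0.077). Without WT TNF replicate 3 the change in WT itself was -0.18 (adjusted p = 0.28). For LRP1 the libraries with TNF lay above the untreated ones in N108 and below them in M3, with no overlap and with 0.14 as the change in N108 and -0.11 in M3 (adjusted p = 0.43 and 0.75), so neither passed, and the difference between N108 and M3 was not tested. Its levels went from 30.2, 31.0 and 30.0 CPM to 31.7, 37.6 and 31.1 CPM in N108 and from 30.0, 30.9 and 29.8 CPM to 29.1, 26.3 and 28.4 CPM in M3.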

How the results depend on the processing

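TGM2, RDH10, ALDH1A3, CRABP2 and RARA kept direction and call in N108 and M3 against WT, with and without TNF, under every alternative run. Over all 10 genes and 11 comparisons, the settings other than leaving out a library left 781 values with the same direction and call, while 37 reversed, 32 gained a call and 19 lost it; leaving out a library gave 720, 32, 5 and 23. CYP26A1 could not be tested with at least 1 CPM in 3 libraries. For each value that follows the cause was not tested.

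Reversals concerned uncalled values. With the GC trend removed, alone or with the replicate block, RXRB in N108 against WT untreated became 0.02, DHRS3 in M3 against WT untreated 0.02, and in N108 against WT with TNF RARG became -0.07 and RXRB -0.06. Leaving out single libraries moved DHRS3 in M3 against WT untreated from -0.07 to 0.0033, CYP26A1 in N108 against M3 untreated from -0.06 to 0.28, RARG in N108 against WT with TNF from -0.04 to 0.07 and RXRB there from -0.0035 to 0.07. It moved TGM2 with TNF in M3 from -0.02 to 0.04 and its interaction with N108 from -0.08 to 0.0032.

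Removing the GC trend gave 8 members called in N108 against M3 untreated (9 with the replicate block), where 5 were called, and 4 in WT with TNF (4 with the block), where 0 were. It gave 2 for the interaction with M3 (2 with the block), and 0 for TNF in N108, as did only the compared groups (0), the replicate block (0) and the block with the GC trend removed (0). Calls among all genes moved too with the GC trend removed. They went from 5994 to 6983 in N108 against M3 untreated (7025 with the block) and from 987 to 1357 for TNF in WT (1368). For TNF in N108 they went from 228 to 206 (209). Over all genes, TNF in N108 had 228 calls, and 348 with DESeq2, 138 with only the compared groups and 652 without a filter. The interaction with N108 had 498, and 1111 with DESeq2, 151 with the GC trend removed, 190 with that and the block, and 1362 without a filter. The interaction with M3 had 60, and 156, 233, 255 and 265. The GC trend's removal changed the split of calls for TNF in WT from 387 higher and 600 lower to 763 and 594, for the interaction with N108 from 387 and 111 to 95 and 56, and for that with M3 from 54 and 6 to 156 and 77.

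Leaving out a library gave 5 to 8 members called in N108 against WT untreated, 0 to 2 for TNF in N108 and 0 to 1 for TNF in M3. Among all genes the calls ran from 6873 to 7429 in N108 against WT untreated. For TNF they ran from 432 to 1023 in WT, 143 to 1333 in N108 and 189 to 214 in M3. For the interactions they ran from 183 to 2430 with N108 and from 14 to 125 with M3. Same-numbered libraries did not deviate together throughout: 16 of 45 correlations were above 0.1, and they ran from -0.712 to 0.604. The untreated libraries numbered 3 did, at 0.348 (WT and N108), 0.449 (WT and M3) and 0.604 (N108 and M3). As the signs were mixed over all groups, the numbers were not taken as pairing, and a replicate block was run as an alternative. Of the listed genes and NFKBIA, 34 of 37 calls in N108 against WT untreated and 33 of 37 in M3 held under every alternative (lost at least once were THRA, RETSAT and KLF4 in N108, and NCOR1, NCOA2, RDH11 and DHRS4 in M3).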
